A study of Mus musculus with 3 samples.

Results

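The genes described here are 9 ligand and receptor genes that recruit, feed and position myeloid cells: Csf1, Il34, Csf1r, Cx3cl1, Cx3cr1, Ccl2, Ccr2, Cxcl12 and Cxcl16. They were chosen by symbol from the 31053 features of the gene list, each symbol matched 1 feature, and all 9 had at least 1 UMI (unique molecular identifier, 1 counted transcript) in the cells kept. The islets came from 3 female NOD-SCID mice, aged 10 to 11 weeks and labelled non-diabetic, with 1 single-cell 3′ library (v2 chemistry) from 1 mouse each and no second group. The scid mutation leaves the strain largely without the mature T and B cells of the NOD strain. Whether these islets held any was not tested. Islets were freed with collagenase, purified on a density gradient and dispersed with TrypLE, and no sort was described.

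As background, macrophages depend on the receptor tyrosine kinase CSF1R, which has a pair of ligands, colony stimulating factor 1 (Csf1) and interleukin 34 (Il34). Fractalkine (Cx3cl1) is a membrane-bound chemokine read by CX3CR1, CCL2 draws CCR2-bearing monocytes and related cells out of blood, CXCL12 is a retention signal read by CXCR4 and scavenged by ACKR3, and CXCL16 is a membrane-bound ligand of CXCR6. Islets hold a resident macrophage population in close contact with capillaries and beta cells.

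A total of 7173 cells passed the filters, 1090, 2609 and 3474 in mice 1, 2 and 3, from libraries of 32389170, 48076507 and 57849496 UMIs. They were grouped by clustering on cell type markers that did not include the 9 genes, and each class is named "-like" for its markers. The classes used were endocrine-like (beta, alpha, delta and gamma), duct-like (377 cells), endothelial-like (375), pericyte-like (158) and fibroblast-like (66, together stromal-like), schwann-like (67), macrophage-like (187) and dendritic-like (120). Macrophage-like cells numbered 23, 51 and 113 in the 3 mice, and all 12 macrophage markers were detected in them, led by C1qa at 7095 CPM. Dendritic-like cells had UMIs of all of these markers but Mertk, with C1qa at 178 CPM and Lyz2 at 769 CPM. The dendritic markers summed to 29040, 42308 and 66065 CPM in macrophage-like cells of mice 1, 2 and 3. In dendritic-like cells they summed to 20784, 26395 and 65891 CPM, so the 2 marker lists overlapped between these classes. The smallest sums were the dendritic-like one of mouse 1 (8 cells, 27569 UMIs), the schwann-like one of mouse 2 (6 cells, 32292 UMIs) and the fibroblast-like one of mouse 1 (6 cells, 95546 UMIs). Levels are CPM, the gene's UMIs in a class of 1 mouse, scaled to 1000000 UMIs in all; 3′ UMI counts are not divided by gene length. Intervals below cover counting error only. Mice 1 and 2 shared 148 cell barcodes, 14 of them kept in both, against 9 and 13 for the other pairs of libraries. Leaving out cells with a shared barcode changed the 90 levels of at least 10 CPM to between 0.924 and 1.04 times their value, and 40 of 41 results listed in the closing section kept their side of the threshold. Insulin transcripts made up 33.3% of fibroblast-like UMIs in mouse 2 against 1.38% and 0.729% in mice 1 and 3, and 16.2%, 27.1% and 0.718% of dendritic-like UMIs in mice 1, 2 and 3. Free RNA, estimated from barcodes with few genes and from transcripts foreign to a class, came to at most 67.4% of the dendritic-like sum and 27.8% of the schwann-like sum of mouse 1. The part of this RNA in the fibroblast-like, dendritic-like and schwann-like levels was not tested.

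**Figure D1:**
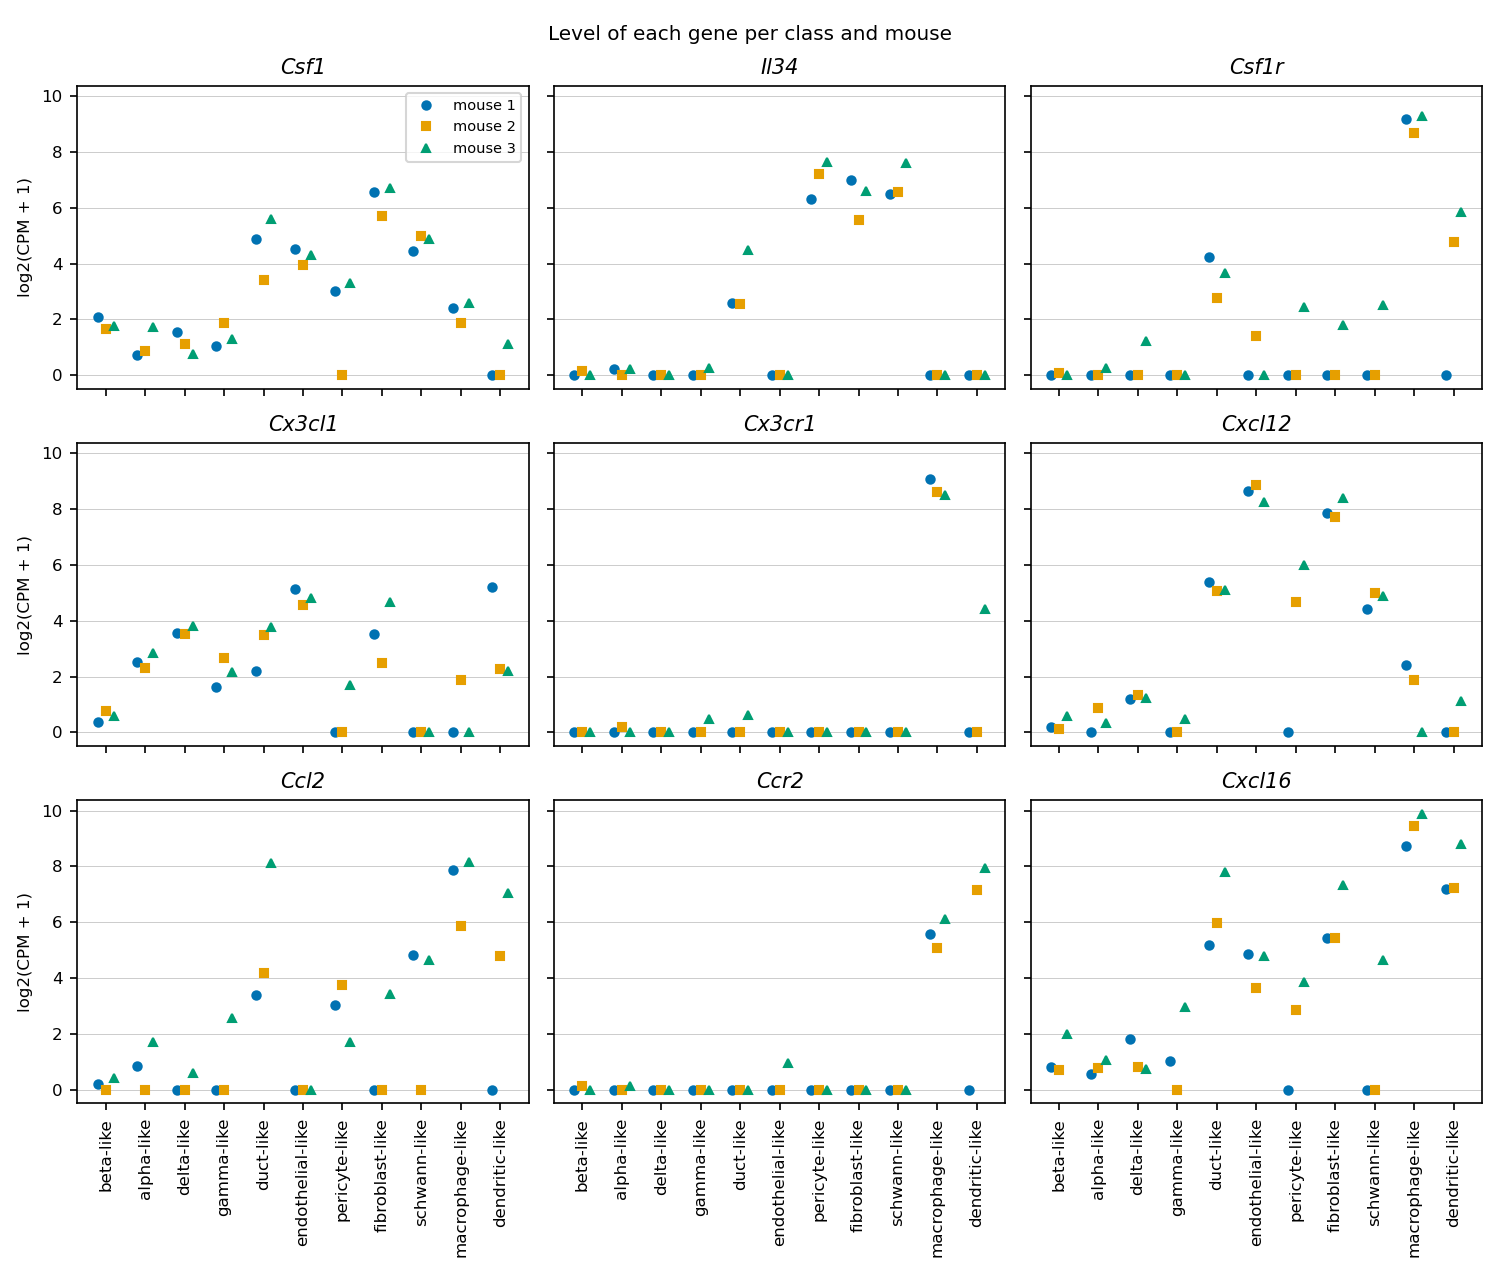
Level of each of the 9 genes in 11 classes, as log2(CPM + 1), with 1 point per mouse and class (circle, mouse 1; square, mouse 2; triangle, mouse 3). Csf1r and Cx3cr1 peak in macrophage-like cells in all 3 mice, Cxcl12 in endothelial-like and fibroblast-like cells, and Il34 in pericyte-like, fibroblast-like and schwann-like cells.

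Macrophage-like cells held the receptors Csf1r, Cx3cr1 and Ccr2 and the ligands Ccl2 and Cxcl16, and had no Il34 UMI. Stromal-like cells held Il34, Csf1 and Cxcl12, and endothelial-like cells held Cxcl12 and Cx3cl1. Duct-like, stromal-like and endocrine-like cells each held UMIs of all 6 ligands. Sums of UMIs per mouse and class were compared with edgeR's quasi-likelihood test with the mouse as a block, with p-values adjusted over all 10451 genes tested. Against the mean of the other 4 classes, macrophage-like cells were higher for 5 of the 9 genes, where 21.7% of all genes tested were higher, and lower for 2 (17.3% of all genes). Stromal-like cells were higher for 3 (18% of all genes), endothelial-like cells were higher for 2 (23.8%) and lower for 2 (17.8%), and duct-like cells were higher for 6 (26.8%). Endocrine-like cells were higher for none (30.2%) and lower for 4 (25%). The mean is taken on the log2 scale, so a gene with no UMI in 1 class has a loose estimate here, and differences between pairs of classes are given below instead. Endocrine-like cells were lower than duct-like cells for 6 of 9 (31.6% of all genes) and higher for none (24.2%). Endothelial-like against stromal-like cells gave 2 higher (15.5%) and 2 lower (14.7%). Calls were thus common among all genes in these comparisons. Some of the 9 genes passed the low-count filter through the class where they are high. Cx3cr1 had 563 macrophage-like UMIs against 3 endocrine-like ones, and Ccr2 had 78 against 4. The counts of the 9 genes, also for the pairs of classes below, are therefore a description and not a test of the group. The 3 mice are separate animals and serve as the replicates, and the p-values do not cover the error of making classes from the same cells.

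Pairs of classes were compared in the same fit, as an addition made after the data were seen. Macrophage-like cells exceeded endocrine-like cells for 5 of the 9 genes (25.6% of all genes were higher), and Cx3cl1 was the 1 lower (25.7%). They exceeded duct-like cells for 4 (21%) and were below them for the ligands Csf1, Il34, Cx3cl1 and Cxcl12 (22.6%). Against endothelial-like cells 5 were higher (19.1%) and 2 lower (19.9%), and against stromal-like cells 5 were higher (19%) and 3 lower (19.7%).

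Endothelial-like cells exceeded endocrine-like cells for Csf1, Cx3cl1, Cxcl12 and Cxcl16, 4 genes where 29.4% of all genes were higher, and were lower for none (27.9%). They exceeded duct-like cells for 2 (23.1%) and were lower for 4 (24.1%). Stromal-like cells exceeded endocrine-like cells for Csf1, Il34, Cxcl12 and Cxcl16, 4 genes where 24.1% of all genes were higher, and were lower for none (21.7%). They exceeded duct-like cells for Il34 and Cxcl12 (19.6%) and were lower for Csf1r and Ccl2 (19.3%).

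The share of each gene's UMIs by class differed from the order of levels for some ligands. Endocrine-like cells contributed 38.0% ± 11.9 (SD over 3 mice) of the Csf1 UMIs and 67.4% ± 6.1 of the Cx3cl1 UMIs, at low levels. Macrophage-like cells contributed 97.3% ± 3.5 of Cx3cr1 and 85.6% ± 1.2 of Csf1r UMIs. For Cxcl12, endothelial-like cells contributed 63.9% ± 7.1, and for Il34 stromal-like cells contributed 57.9% ± 9.0 and duct-like cells 16.7% ± 1.9. These shares move with how many cells of each class were recovered.

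**Figure D2:**
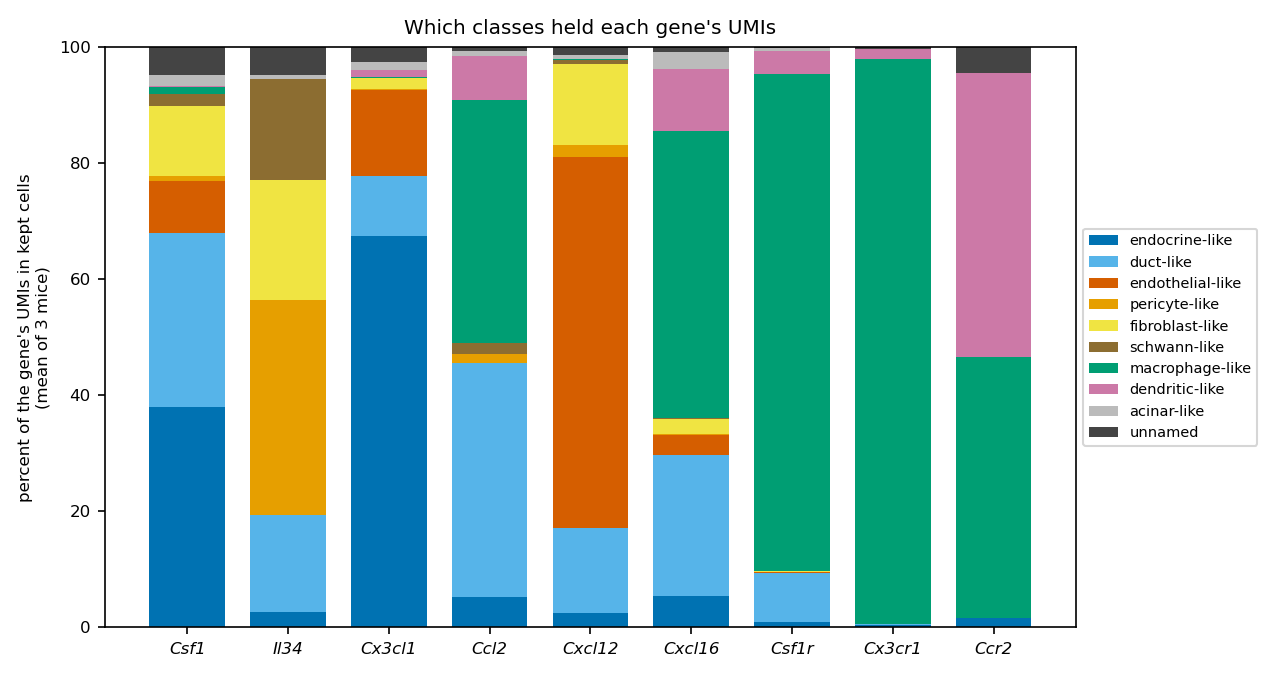
Percent of each gene's UMIs in kept cells that came from each class, as the mean of 3 mice; each stacked bar is 1 gene and adds to 100. Endocrine-like cells fill much of the Csf1 and Cx3cl1 bars, macrophage-like cells nearly all of Csf1r and Cx3cr1, and endothelial-like cells most of Cxcl12.

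Csf1 and Cxcl12, 2 of the 3 ligands that were higher in fibroblast-like than in pericyte-like cells, are given with the 250 bases before their annotated starts. Both windows lie upstream of every annotated exon. They were taken from the RefSeq promoter table (GRCm38.p6), which held 5 of the 9 genes. The Csf1 window is chr3:107760470-107760719, minus strand, and the Cxcl12 window is chr6:117168285-117168534, plus strand. Capitals mark the GC box GGGCGG on either strand (CCGCCC on the other), the core bound by Sp1-type factors.
Csf1: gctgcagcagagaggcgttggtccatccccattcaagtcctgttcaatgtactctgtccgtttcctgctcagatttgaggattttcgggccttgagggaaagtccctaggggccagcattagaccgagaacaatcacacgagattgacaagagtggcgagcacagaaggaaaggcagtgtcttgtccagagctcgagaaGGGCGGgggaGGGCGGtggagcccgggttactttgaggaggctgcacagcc
Cxcl12: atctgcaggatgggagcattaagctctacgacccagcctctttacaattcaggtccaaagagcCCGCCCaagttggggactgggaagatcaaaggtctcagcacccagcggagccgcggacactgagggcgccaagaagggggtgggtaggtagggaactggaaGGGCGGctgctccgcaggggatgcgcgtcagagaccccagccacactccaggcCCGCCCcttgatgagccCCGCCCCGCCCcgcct
The Csf1 window held 2 GC boxes, which begin 51 and 41 bases before the start, and the Cxcl12 window held 5, of which the last 2 overlap. A GC box was found in 32.7% of all 32851 windows of this length in the table. The TATA box TATAAA, searched on both strands, was in neither window and in 12.4% of all windows. GC content was 56.4% for Csf1 and 64.4% for Cxcl12. A match of letters is a description and not a bound site.

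Csf1 (ENSMUSG00000014599, chromosome 3, 107741048 to 107760469 in mm10), the main growth factor of macrophages, was highest in fibroblast-like cells and low in all endocrine classes. Its level in fibroblast-like cells was 94.2, 51.1 and 103 CPM in mice 1, 2 and 3 (82.7 ± 27.7, SD, n = 3). Pericyte-like cells held 7.11, 0 and 8.92 CPM. No pericyte-like value reached the lowest fibroblast-like value, and the fibroblast-like level was higher by 3.90 ± 0.66 (SE) on the log2 scale (adjusted p = 4.46e-05) in a fit of the smaller classes that was added after the data were seen. Without mouse 1, whose fibroblast-like sum had 6 cells, the difference was 3.98.

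Duct-like cells held 28.8, 9.58 and 47.0 CPM of Csf1, endothelial-like cells 21.9, 14.6 and 18.9 CPM, and schwann-like cells 26.7 ± 5.42 CPM (SD, n = 3). The schwann-like values came from only 3, 1 and 6 UMIs in mice 1, 2 and 3. The duct-like range spanned all endothelial-like values. Stromal-like cells exceeded endocrine-like cells by 3.49 ± 0.37 (adjusted p = 1.88e-08), and endocrine-like cells were below duct-like cells by -2.70 ± 0.30 (adjusted p = 2.19e-08). In mouse 1 a single duct-like cell held 23 of the 40 duct-like Csf1 UMIs, and the level without it was 12.4 CPM. Stromal-like cells, pericyte-like and fibroblast-like together, were higher than endothelial-like cells, since the reverse difference was -1.26 ± 0.41 (adjusted p = 0.0209) with no overlap between mice. That call was lost without mouse 1 and without mouse 3 (-1.37 and -1.09). Macrophage-like cells, which carry the receptor, held 4.27, 2.70 and 4.97 CPM of the ligand, from only 1, 1 and 4 UMIs. Their difference from endocrine-like cells did not pass the threshold (0.64 ± 0.79, adjusted p = 0.527).

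Among endocrine classes, Csf1 was at 3.25, 2.12 and 2.42 CPM in beta-like cells, 0.652, 0.833 and 2.31 CPM in alpha-like cells, and 1.91, 1.15 and 0.677 CPM in delta-like cells. Gamma-like cells held 1.05, 2.66 and 1.42 CPM, from 1, 1 and 7 UMIs. Beta-like cells were above alpha-like and delta-like cells in each mouse and below gamma-like cells in mouse 2, and their range overlapped that of alpha-like cells. Insulin transcripts made up 62.7%, 66.3% and 63.8% of beta-like UMIs in the 3 mice. Totals alone in place of TMM scaling moved the median of all genes by -0.55 (beta against alpha) and -1.20 (beta against delta) on the log2 scale. With TMM, Csf1 was higher in beta-like than in alpha-like cells by 1.35 ± 0.35 (adjusted p = 0.0016) and than in delta-like cells by 2.58 ± 0.49 (adjusted p = 4.38e-05). With totals alone the differences were 0.81 (adjusted p = 0.0475) and 1.40 (adjusted p = 0.0169). Alpha-like and delta-like cells did not differ past the threshold (1.23 ± 0.55, adjusted p = 0.067), and this difference changed sign without mouse 3 (-0.30). A UMI of Csf1 was found in 6.85% of beta-like cells (95% exact interval 5.46% to 8.47%) and, after thinning to 2000 UMIs per cell, in 0.364%, close to the 0.342% over all endocrine-like cells. Of the 9 genes, only Csf1 and Cx3cl1 passed the low-count filter of the endocrine fit.

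Il34 (ENSMUSG00000031750, chromosome 8, 110741829 to 110805924), the other CSF1R ligand, was a product of the mural, fibroblast and glial classes. Pericyte-like cells held 78.2, 147 and 201 CPM (142 ± 61.5, SD, n = 3), fibroblast-like cells 126, 46.4 and 95.4 CPM, and schwann-like cells 89.3, 92.9 and 195 CPM, where the value of mouse 2 is 3 UMIs. The 3 classes overlapped, and each of their values lay above every duct-like value of 5.03, 4.79 and 21.6 CPM. Stromal-like cells exceeded duct-like cells by 3.65 ± 0.33 (adjusted p = 6.38e-09). Fibroblast-like minus pericyte-like was -0.64 ± 0.37 (adjusted p = 0.252), and -0.99 (adjusted p = 0.0366) without mouse 1.

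Duct-like cells nonetheless held Il34 above endocrine-like cells in each mouse. The endocrine-like level was 0.075 ± 0.0169 CPM (SD, n = 3), and the difference from duct-like cells was -5.80 ± 0.51 on the log2 scale (adjusted p = 1.88e-09). No Il34 UMI was found in endothelial-like, macrophage-like, dendritic-like or delta-like cells. For macrophage-like cells that is 0 of 187 cells, and 3 counts, the limit taken for a count of 0, would be a share of cells with a UMI of 1.60%. A cell can express a gene and have no UMI. Taking 3 UMIs over the class as the limit, stromal-like cells were at least 91.9-fold higher than endothelial-like cells and at least 59.4-fold higher than macrophage-like cells. An Il34 UMI was seen in 53.2% of pericyte-like cells and 33.3% of fibroblast-like cells, against 0.195% of endocrine-like cells, and in 33.3%, 19.0% and 0.0571% after thinning. Median depths were 3677 to 7777 UMIs in pericyte-like cells and 15491 to 24032 in endocrine-like cells. Exons of 2 gene models on the opposite strand overlap Il34, and whether counting used strand is not given in the sources used here.

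The 2 CSF1R ligands were therefore split over the stromal classes: Csf1 in fibroblast-like and little in pericyte-like cells, Il34 in both. In fibroblast-like cells the 2 levels were 82.7 and 89.2 CPM on average, and in pericyte-like cells 5.34 and 142 CPM. These CPM levels are not divided by length, so they do not rank the transcripts against each other.

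Csf1r (ENSMUSG00000024621, chromosome 18, 61100598 to 61132149) encodes the receptor of both ligands. Macrophage-like cells held 580, 410 and 627 CPM (539 ± 114, SD, n = 3). Dendritic-like cells held 0, 26.5 and 55.9 CPM, with the 0 from a sum of only 27569 UMIs, where 3 UMIs would be worth 109 CPM. The lowest macrophage-like value lay above every other class, and macrophage-like cells exceeded dendritic-like cells by 3.72 ± 0.40 on the log2 scale (adjusted p = 1.08e-07, and 3.59 without mouse 1). A UMI was found in 83.4% of macrophage-like cells (95% exact interval 77.3% to 88.5%) and in 0.362% of endocrine-like cells. After thinning the shares were 63.2% and 0.0856%.

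Csf1r was also found in the duct-like class of every mouse, at 18.0, 5.86 and 11.6 CPM. This is far below the macrophage-like level, by 6.22 ± 0.28 (adjusted p = 3.22e-13), while endocrine-like cells were below duct-like cells by -5.13 ± 0.48 (adjusted p = 1.71e-08). The 57 UMIs came from 34 of 377 duct-like cells, at most 11 from 1 cell. All 34 held at least 3 duct markers and 2 held at least 3 of the 12 macrophage markers. Of the 343 other duct-like cells, 313 and 9 did. In duct-like cells 10 of the 12 macrophage markers were detected, and Adgre1 and Mrc1 were at 0. Cd14 carried 1721 of the UMIs of the list, Cd68 32, C1qa 14, Mertk 12 and C1qb 8, and the others fewer. The 34 cells had a median of 31120 UMIs against 5540 in the other duct-like cells, and thinning left 5 of 325 cells with a UMI. Against the mean of the other 4 classes the duct-like call was 1.46 ± 0.48 (adjusted p = 0.0174) and it was lost in 4 of 17 alternatives, among them thinning (0.12). An exon of Hmgxb3 on the opposite strand overlaps Csf1r.

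Of the 17 genes listed as colony factor family and partners, 13 passed the low-count filter, and 8 were higher and 1 lower in macrophage-like cells than in the mean of the other classes, where 21.7% and 17.3% of all genes were. A rare gene can pass the filter through the class where it is high, so such counts describe only the genes that passed. Tyrobp, an adaptor of myeloid receptors, was at 2002, 2298 and 2534 CPM in macrophage-like cells, and Spi1, the myeloid transcription factor PU.1, at 282, 251 and 382 CPM. Grb2, an adaptor that binds activated receptor kinases, was also among those higher. Stromal-like cells were higher for 3 and lower for 4 of the 13 (18% and 10% of all genes), and endothelial-like cells higher for 3 and lower for 4 (23.8% and 17.8%). Duct-like cells were higher for 3 and lower for 6 (26.8% and 18.3%), and endocrine-like cells higher for 2 and lower for 3 (30.2% and 25%). Kitl, the ligand of the related receptor KIT, led the endothelial-like calls with 255, 285 and 337 CPM, and pericyte-like cells held 156, 252 and 315 CPM. Sdc1, syndecan 1, a proteoglycan that binds IL-34, was at 28.8, 29.8 and 27.7 CPM in duct-like cells and 31.4, 13.9 and 26.9 CPM in fibroblast-like cells.

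Ptprz1, the phosphatase that is another receptor for IL-34, was 1 of the 2 genes of this list that were higher in endocrine-like cells (log2 difference 4.78 from the mean of the other 4 classes of the fit, adjusted p = 6.75e-13). It was found in delta-like cells at 166, 178 and 131 CPM and in schwann-like cells, which were not in that fit, at 371, 186 and 338 CPM, with 6 UMIs behind the value of mouse 2. Delta-like cells contributed 74.4% ± 9.0 of its UMIs. Beta-like cells were lower than delta-like cells by -4.97 (adjusted p = 0.00142). Il34 was therefore measured beside Ptprz1 in schwann-like cells, while delta-like cells held Ptprz1 with no Il34 UMI.

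Cx3cl1 (ENSMUSG00000031778, chromosome 8, 94772009 to 94782427) encodes fractalkine. It was highest in endothelial-like cells, at 33.8, 22.7 and 27.3 CPM (28.0 ± 5.58, SD, n = 3). Fibroblast-like cells held 10.5, 4.64 and 24.5 CPM, duct-like cells 3.60, 10.1 and 12.7 CPM, and macrophage-like cells 0, 2.70 and 0 CPM. The fibroblast-like values came from 1, 1 and 10 UMIs, and the macrophage-like value of mouse 2 from 1 UMI. Endothelial-like values lay above all duct-like and endocrine-like values and above those of the merged stromal-like sum. They overlapped the fibroblast-like values, since 24.5 CPM in mouse 3 exceeded the endothelial-like 22.7 CPM of mouse 2. The differences were 1.72 ± 0.39 from duct-like (adjusted p = 0.000596), 1.79 ± 0.52 from stromal-like (adjusted p = 0.00885) and 1.98 ± 0.34 from endocrine-like cells (adjusted p = 1.57e-05). Without mouse 1 the stromal-like difference was 1.48 and lost its call. Dendritic-like cells stood at 36.3, 3.79 and 3.57 CPM, where the first value is 1 UMI in a sum of 8 cells.

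Within the endocrine cells Cx3cl1 was low in beta-like cells and higher in alpha-like and delta-like cells. Delta-like cells held 10.8, 10.4 and 13.0 CPM, alpha-like cells 4.72, 3.89 and 6.10 CPM, gamma-like cells 2.10, 5.32 and 3.46 CPM, and beta-like cells 0.296, 0.690 and 0.501 CPM. The order delta, alpha, beta held in every mouse without overlap, and gamma-like cells overlapped alpha-like cells. Beta-like cells were lower than alpha-like cells by -2.56 ± 0.30 (adjusted p = 3.7e-09) and than delta-like cells by -3.09 ± 0.31 (adjusted p = 8.81e-11), past the threshold in all 16 alternatives in which the gene could be tested. Thinned to 2000 UMIs per cell, neither Cx3cl1 nor Csf1 passed the low-count filter. In the first of these comparisons 1 of the 2 genes tested was higher (24.6% of 12163 genes) and 1 lower (25.4%), and in the second likewise (22.7% and 23.3%). The step from alpha-like to delta-like cells was smaller, -0.54 ± 0.22 (adjusted p = 0.0468, the 1 lower call where 20.9% of all genes were lower), and this call was lost in 10 of 16 alternatives, among them the fit without shared barcodes (adjusted p = 0.0644). With totals alone it was -1.19.

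**Figure D3:**
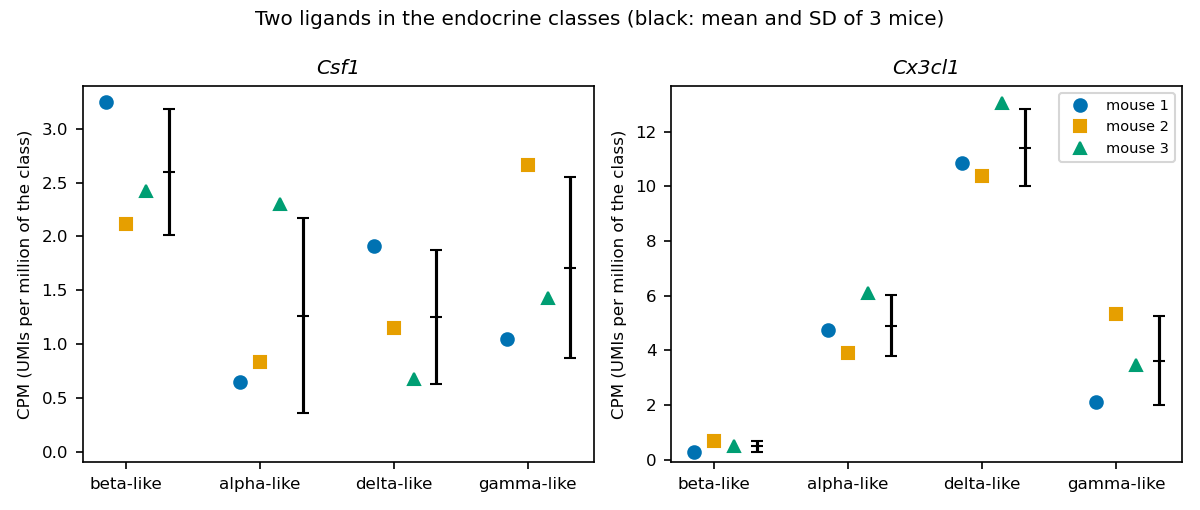
Csf1 (left) and Cx3cl1 (right) in beta-like, alpha-like, delta-like and gamma-like cells, in CPM on linear axes, with 1 point per mouse and the mean with its SD in black. Beta-like cells sit lowest for Cx3cl1, between 0.296 and 0.690 CPM, and delta-like cells highest, between 10.4 and 13.0 CPM; for Csf1 the classes lie within 0.652 to 3.25 CPM.

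Beta-like sums had enough UMIs to see a level near that of alpha-like cells: 22 Cx3cl1 UMIs were counted in 39026176 beta-like UMIs, against 176 in 32860402 alpha-like UMIs. A UMI was found in 1.56% of beta-like, 11.1% of alpha-like and 12.8% of delta-like cells. After thinning the shares were 0.182%, 1.11% and 2.05%, in the same order.

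Cx3cr1 (ENSMUSG00000052336, chromosome 9, 119901616 to 120069879), the receptor of fractalkine, was found in the myeloid classes, with 3 UMIs in all endocrine-like cells and 1 in duct-like cells. Macrophage-like cells held 538, 391 and 363 CPM (431 ± 93.9, SD, n = 3), and dendritic-like cells 0, 0 and 20.2 CPM. Endothelial-like and stromal-like cells had no UMI, and macrophage-like cells were at least 290-fold and at least 196-fold higher. They exceeded dendritic-like cells by 4.84 ± 0.49 on the log2 scale (adjusted p = 4.86e-07). A UMI was found in 72.2% of macrophage-like cells and 0.0836% of endocrine-like cells, and in 40.0% and 0.0571% after thinning. An exon of a gene model on the opposite strand overlaps Cx3cr1.

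In macrophage-like cells the receptors were found together. Csf1r and Cx3cr1 UMIs were both present in 128 of 187 cells, Csf1r alone in 28, Cx3cr1 alone in 7 and neither in 24. From the single shares 113 cells with both would be expected. The cells with neither had a median of 1945 UMIs against 8552 in those with both, so depth moves with this count, and its part was not tested. Ccr2 was found in 36 of the 187 cells, and 35 of them also held Csf1r, where the single shares give 30.0.

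Ccl2 (ENSMUSG00000035385, chromosome 11, 82035571 to 82037453), the ligand of CCR2, was carried by macrophage-like, dendritic-like and duct-like cells and its levels differed widely between mice. Macrophage-like cells held 230, 56.6 and 287 CPM, dendritic-like cells 0, 26.5 and 130 CPM, and duct-like cells 9.35, 17.0 and 279 CPM. Mouse 3 was highest in all 3 classes, and the macrophage-like and duct-like ranges overlapped (difference 2.05 ± 0.73, adjusted p = 0.0639). No Ccl2 UMI was found in 375 endothelial-like cells, where 3 counts would be a share of cells with a UMI of 0.8%, and the macrophage-like level was at least 158-fold higher.

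Few cells held most of the Ccl2. In mouse 3, 38 of 131 duct-like cells had a UMI, and the 12 cells with at least 10 UMIs held 89.3% of the class's 504 UMIs. In mice 1 and 2 a single duct-like cell held 12 of 13 and 22 of 32 UMIs, and without those cells the levels were 0.729 and 5.41 CPM. In dendritic-like cells of mouse 2 all 7 UMIs came from 1 cell. In macrophage-like cells of mouse 1, 1 cell held 40 of 54 UMIs, and the level without it was 63.7 CPM. The duct-like call against the mean of the other classes (4.94 ± 0.98, adjusted p = 0.00612) was lost without mouse 2 and without mouse 3 (5.12 and 2.69), while endocrine-like cells were below duct-like cells in all 17 alternatives (-5.87 ± 0.87, adjusted p = 0.00107).

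Duct-like cells of mouse 3 also differed in other ways. Their median depth was 11632 UMIs against 3491 and 3759, and Cd74, the invariant chain of MHC class II and one of the 13 dendritic markers, stood at 632 CPM against 53.2 and 105. The summed level of the 13 markers was 78.4, 133 and 733 CPM, 8 of the 13 were detected, and Cd209a, Clec9a, Clec10a, Wdfy4 and Itgax were at 0. Ccl5, a chemokine of the listed CC group, was at 0.719, 19.2 and 348 CPM in the same cells. The part of these differences in the duct-like Ccl2 level was not tested. Without non-myeloid cells that held at least 3 macrophage or dendritic markers the duct-like difference was 4.09 (adjusted p = 0.00381).

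Ccr2 (ENSMUSG00000049103, chromosome 9, 124101950 to 124113557), the receptor of CCL2, was the 1 of the 3 receptors that was higher in dendritic-like than in macrophage-like cells. Dendritic-like cells held 0, 140 and 246 CPM and macrophage-like cells 46.9, 32.4 and 68.4 CPM. Mice 2 and 3 were higher in dendritic-like cells, and the 0 of mouse 1 comes from a sum in which 3 UMIs would be worth 109 CPM. Macrophage-like minus dendritic-like was -1.78 ± 0.41 (adjusted p = 0.00612), and -1.98 (adjusted p = 6.27e-06) without mouse 1. In the same fit Csf1r, Cx3cr1, Ccl2 (1.28) and Cxcl16 (1.49) were higher in macrophage-like cells, 4 genes where 7.64% of the 4700 genes tested were higher, and Ccr2 was the 1 lower (3.68%). Insulin transcripts were 16.2%, 27.1% and 0.718% of UMIs in dendritic-like cells against 3.57%, 4.41% and 1.60% in macrophage-like cells, and their part in these differences was not tested.

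In dendritic-like cells 34 of 120 held UMIs of both Ccr2 and Flt3, the receptor that drives dendritic cell development, 24 held Ccr2 alone and 11 Flt3 alone. Of the 34, 28 were from mouse 3, where the single shares give 26.6, and 6 from mouse 2, where they give 1.5. Median depth was 15324.5 UMIs in cells with both and 4291 in cells with neither, and its part was not tested. Flt3 stood at 0, 34.1 and 86.8 CPM in dendritic-like and 0, 2.70 and 0 CPM in macrophage-like cells. Duct-like and stromal-like cells had no Ccr2 UMI, and endocrine-like cells had 4.

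**Figure D4:**
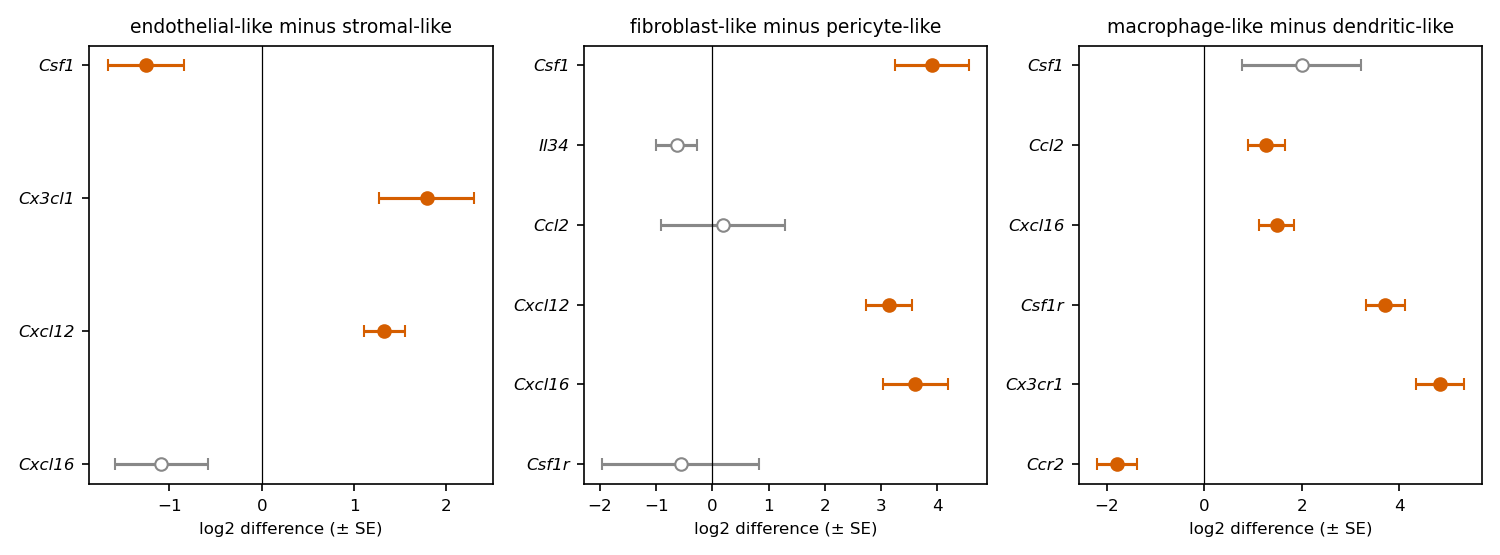
Log2 difference with its SE in 3 comparisons, for genes with an SE under 1.5 and UMIs in both classes; filled points passed an adjusted p of 0.05. Csf1, Cxcl12 and Cxcl16 lie to the fibroblast-like side in the middle panel, and Ccr2 is the only filled point to the dendritic-like side in the right panel.

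Cxcl12 (ENSMUSG00000061353, chromosome 6, 117168535 to 117181367) was highest in endothelial-like and fibroblast-like cells. Endothelial-like cells held 406, 465 and 304 CPM (392 ± 81.7, SD, n = 3) and fibroblast-like cells 230, 209 and 338 CPM. These 2 classes overlapped, while pericyte-like cells held 0, 24.6 and 62.5 CPM and duct-like cells 41.0, 32.5 and 33.7 CPM. Fibroblast-like cells exceeded pericyte-like cells by 3.14 ± 0.41 (adjusted p = 1.06e-06) with no overlap. With Csf1 and Cxcl16 (3.61), 3 genes were higher in fibroblast-like cells, where 10.7% of the genes tested were higher, and none was lower (9.53%).

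Endothelial-like cells exceeded the stromal-like sum by 1.33 ± 0.22 (adjusted p = 4.28e-05), duct-like cells by 3.60 ± 0.22 (adjusted p = 1.02e-11) and endocrine-like cells by 8.90 ± 0.28 (adjusted p = 3.96e-17). Endocrine-like cells held 0.362 ± 0.153 CPM. A Cxcl12 UMI was found in 51.2% of endothelial-like, 72.7% of fibroblast-like and 0.753% of endocrine-like cells, and in 36.8%, 44.8% and 0.171% after thinning. In mouse 1, 1 endothelial-like cell held 42 of 204 UMIs, and the level without it was 331 CPM.

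Duct-like cells held more Cxcl12 than 2 other classes. Endocrine-like cells were below them by -5.30 ± 0.31 (adjusted p = 2.58e-12) and macrophage-like cells by -3.90 ± 0.75 (adjusted p = 0.000198). Against the mean of the other 4 classes its call (0.83 ± 0.30, adjusted p = 0.0278) was lost in 5 of 17 alternatives, and in 1 of these, thinning, the sign turned (-0.33).

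The receptors of CXCL12 lay in part in the classes that held the ligand. Cxcr4, the signalling receptor, was at 57.7, 81.1 and 53.8 CPM in endothelial-like and 59.8, 37.8 and 41.0 CPM in macrophage-like cells. Endothelial-like cells contributed 55.4% ± 9.7 of its UMIs and macrophage-like cells 23.8% ± 4.9. Ackr3, the scavenging receptor, was at 189, 201 and 280 CPM in endothelial-like and 49.8, 123 and 154 CPM in pericyte-like cells, and it was higher in endothelial-like than in stromal-like cells by 1.37 (adjusted p = 0.00142). Cxcl12, Cxcr4 and Ackr3 were thus all measured in the endothelial-like class of every mouse. Within that class 24 of 375 cells held UMIs of both Cxcl12 and Cxcr4, where the single shares give 34.3. In mice 1, 2 and 3 the counts were 5, 12 and 7 against 7.96, 16.4 and 12.4. Both Cxcl12 and Ackr3 were found in 97 cells, where the single shares give 107. By mouse these were 16, 32 and 49 against 17.0, 32.1 and 58.7, so the gap lay mostly in mouse 3.

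Cxcl16 (ENSMUSG00000018920, chromosome 11, 70453983 to 70459984) encodes a membrane-bound chemokine and was found in myeloid, duct-like and fibroblast-like cells. Macrophage-like cells held 423, 693 and 935 CPM (683 ± 256, SD, n = 3), dendritic-like cells 145, 148 and 450 CPM, duct-like cells 35.2, 61.8 and 219 CPM, and fibroblast-like cells 41.9, 41.8 and 159 CPM. Mouse 3 was highest in all 4 classes. In mouse 1 the dendritic-like value came from 8 cells with 27569 UMIs, and the fibroblast-like value from 6 cells. Free RNA was estimated at up to 67.4% of that dendritic-like sum, and its part in the level was not tested. Macrophage-like cells exceeded duct-like cells by 3.61 ± 0.30 (adjusted p = 2.77e-07) and endothelial-like cells by 5.69 ± 0.39 (adjusted p = 4.36e-08) without overlap. Endocrine-like cells held 1.23 ± 0.842 CPM and were below duct-like cells by -5.23 ± 0.36 (adjusted p = 1.86e-08). A UMI was found in 81.3% of macrophage-like, 32.4% of duct-like and 2.82% of endocrine-like cells, and in 75.5%, 17.5% and 0.342% after thinning. Exons of Zmynd15 on the opposite strand overlap Cxcl16.

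CXCL16's receptor was hardly found. Cxcr6 was at 0, 0 and 21.1 CPM in macrophage-like cells, and most other UMIs lay in cells of clusters that could not be named. The 40 UMIs there came from 11 cells, all of mouse 3, and all 11 held a UMI of at least 1 of the T-cell markers. Their median was 1 T-cell or NK-cell marker, and 3 of the 11 held at least 3. Among the 1436 unnamed cells with neither a Cxcr6 nor a Ccr2 UMI, 29 held a T-cell marker. What the 11 cells are was not tested.

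Of the other chemokines and receptors listed, 9 of 17 CC chemokines, 7 of 14 CXC and XC chemokines and 4 of 16 receptors passed the low-count filter, some of them through the class where they are high. Against the mean of the other classes, 21.7% of all genes were higher and 17.3% lower in macrophage-like cells. Of the 9 CC chemokines, 6 were higher and 1 was lower there, led by Ccl3 (734, 715 and 809 CPM), Ccl9, Ccl12 and Ccl6, attractants of myeloid cells. Of 7 CXC chemokines, 6 were higher, led by Cxcl14, the neutrophil attractant Cxcl2 (1733, 2842 and 3947 CPM), Pf4 and Cxcl1. The 4 receptors that passed, among them Cxcr4, were higher, and the other 12 were not tested.

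In stromal-like cells Ccl11, eotaxin, was at 161, 164 and 354 CPM, and it was the 1 of 9 CC chemokines higher there, where 18% of all genes were higher. Cxcl14 and Cxcl9 were the 2 of 7 CXC chemokines that were higher. In duct-like cells Cxcl17, a mucosal chemokine, was at 36.7, 16.0 and 65.8 CPM, and Cxcl1 at 160, 141 and 460 CPM. Endocrine-like cells were higher for 1 of 9 CC chemokines, Ccl27a, and none of 7 CXC chemokines, with 5 lower, where 30.2% of all genes were higher and 25% lower. Delta-like cells held Ccl28, a mucosal chemokine, at 14.0, 10.4 and 18.4 CPM against 1.18, 0.788 and 0.334 CPM in beta-like cells (beta minus delta -3.05, adjusted p = 7.78e-10). Of the proteases that release the membrane-bound ligands CX3CL1 and CXCL16, Adam10 was at 169, 164 and 179 CPM in endothelial-like cells and Adam17 at 59.8, 86.3 and 95.7 CPM in macrophage-like cells. In the group of atypical receptors and processing enzymes, 3 of 5 were higher in endothelial-like cells and 1 was lower (23.8% and 17.8% of all genes), and 2 of 5 were higher in macrophage-like cells and 1 was lower (21.7% and 17.3%).

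As a description of likeness with no test, the genes whose log2(CPM + 1) correlated best with each of the 9 over 15 sums (5 classes in 3 mice, which share libraries) were found among 10331 candidates that were no markers. For Cx3cr1 they were Lrrc25, Cd53 and Ly9 (Pearson r 0.999 for each), and for Ccr2 Runx3, Sla and Fcgr2b (r at least 0.997). For Csf1r they were Lpcat2, Tagap and Slc35c2 (r 0.982 to 0.971), and for Cxcl16 Cebpa, Gpx1 and Tank (r 0.971 to 0.962). For Il34 they were Sod3, Arhgap42 and Lhfp (r 0.997 to 0.983), and for Cxcl12 Ehd2, Ackr3 and Hspg2 (r 0.980 to 0.975). For Csf1 they were Pdlim1, Csrp1 and 4930523C07Rik (r 0.959 to 0.945), for Cx3cl1 Arl15, Fzd8 and Mtf2 (r 0.954 to 0.946), and for Ccl2 Cstb, Zbtb8os and Tnf (r 0.953 to 0.923). Ackr3, the scavenger of CXCL12, was among the 3 most like its ligand.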

How the data were processed

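Single-cell 3′ libraries of islet cells from 3 NOD-SCID mice, 1 library per mouse, were read as deposited raw UMI counts per gene and barcode. The submitters' processing notes name Cell Ranger 2.2 and mm10, while the matrix headers carry software version 3.1.0; other upstream settings are not given in the sources used here. Barcodes under 500 genes or above 15% mitochondrial UMIs were dropped, and the highest doublet scores (Scrublet in scanpy 1.11.5) were removed at 0.8% per 1000 barcodes. Cells were clustered on 158 markers of 19 cell types (20 components, 20 neighbours, leidenalg 0.10.2 at resolution 1). The 9 genes and 72 listed partner genes were kept out of clustering and naming. A cluster was named when at least 3 markers of 1 type were among its 30 leading genes, at least 1 of them in the first 10, and at least 3 were raised 2-fold; 4 clusters stayed unnamed.

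Counts were summed per mouse and class and tested with edgeR 4.0.16 (R 4.3.3, quasi-likelihood, TMM, low-count filter), with Benjamini-Hochberg adjustment over all genes tested and a threshold of 0.05. Classes entered the main fits with at least 10 cells in every mouse. The added fit of macrophage-like, dendritic-like, fibroblast-like and pericyte-like sums was run without this minimum. In mouse 1 its dendritic-like sum had 8 cells and its fibroblast-like sum 6. Same-numbered sums come from the same animal, so the mouse was a block. Standard errors were taken from the fold change and its F value and are approximate. A self-test of the fit was also run on simulated counts. Thinning drew 2000 UMIs per cell and left out shallower cells, 555 of the 7173 kept. Totals alone in place of TMM moved the median log2 difference of all genes between classes, by -0.84 for endocrine-like and 0.54 for duct-like cells against the mean of the others, and the higher share of calls from 54.7% to 15.3% and from 59.5% to 86.7%. Gene positions are from GENCODE M21 on GRCm38, matched by identifier.

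Every one of the 9 genes was tested in each comparison where it passed the filter. The text names, of each other list (colony factor family and partners, CC chemokines, CXC and XC chemokines, chemokine receptors, atypical receptors and processing), up to 4 genes with the smallest p past the threshold; other levels printed were chosen after the values were seen. Some listed genes that this rule names are not reported here. The genes and lists were chosen with earlier results of these data known. Alternatives tried were DESeq2 1.42.0, other scalings, filters, cluster settings, no doublet removal, thinning, no block and each mouse left out.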

Additional observations from a re-analysis of the deposited data

Results flagged for a closer look

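Cells of the 4 clusters that could not be named, 322, 545 and 584 in mice 1, 2 and 3, entered no comparison, and some held more UMIs of these genes than the limit of 3 counts. Csf1 had 7, 6 and 5 UMIs in mice 1, 2 and 3. Il34 had 4 UMIs in mouse 1, all in 1 cell. Cx3cl1 had 4 UMIs in mouse 2 and 13 in mouse 3. Ccl2 had 5 UMIs and Ccr2 14 UMIs in mouse 3, the latter in 8 cells. Cxcl12 had 4 UMIs in mouse 1 and 12 in mouse 2, and Cxcl16 had 5 in mouse 2 and 12 in mouse 3. The Cxcr6 count was 40 UMIs in 11 cells of mouse 3, of which 3 held at least 3 T-cell or NK-cell markers. No cause was tested for these counts.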

How the results depend on the processing

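For 41 results on the 9 genes, 681 values were computed under up to 17 alternatives; 638 kept direction and side of the threshold, 37 lost the call, 3 gained one and 3 changed sign, and 25 results kept both under every alternative run for them. The sign changes were Cxcl12 in duct-like cells after thinning (-0.33), Cx3cl1 in endocrine-like against duct-like cells without mouse 2 (0.086, the highest of -0.54 to 0.086 with a mouse left out, against -0.26) and Csf1 in alpha-like against delta-like cells without mouse 3 (-0.30, the lowest of -0.30 to 1.77). The number of the 9 genes past the threshold rose from 4 to 8 for endocrine-like cells with DESeq2. For duct-like cells it fell from 6 to 3 after thinning and to 3 with classes from each cell's own markers, and was 2 to 5 with a mouse left out. For endothelial-like cells it was 2 to 5 with a mouse left out, against 4. For endothelial-like against stromal-like cells it fell from 4 to 2 after thinning and was 3 to 4 with a mouse left out. Without the low-count filter it was 4 for beta-like against alpha-like and 2 for alpha-like against delta-like cells. After thinning all 3 endocrine comparisons gave 0, where neither gene could be tested. For alpha-like against delta-like cells the 1 call became 0 with DESeq2, at resolution 0.5, without doublet removal, with own-marker classes and without shared barcodes, and was 0 to 1 with a mouse left out. With no replicate block, 3 calls were lost: Cxcl16 in duct-like (1.21, adjusted p = 0.0687) and endothelial-like cells (-1.40, adjusted p = 0.13), and Cx3cl1 in alpha-like against delta-like cells (-0.55, adjusted p = 0.0882), where the count became 0. The cause of these changes was not tested beyond what each setting removes. The calls past the threshold among all genes fell most under thinning, from 5765 to 2103 for endocrine-like cells. Cell classes from own markers, shared barcodes, mixed cells, class pairs and the small-class fits were chosen after seeing the data; own-marker classes as first planned left too few cells and gave no value. Few cells limit the dendritic-like and fibroblast-like sums of mouse 1 and the schwann-like sum of mouse 2.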
